A study of Mus musculus with 9 samples.

Results

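Pro-B cells expressing *Dntt* were taken from single cell RNA sequencing of bone marrow, in which unique molecular identifiers (UMIs) of 31053 genes were counted per cell barcode. The bone marrow came from both femurs of 9 female mice aged 9 to 10 weeks, 3 each of the inbred strains NZB and NZW and of NZBWF1, the lupus-prone hybrid of an NZW mother and an NZB father. All 9 were bought from the Jackson Laboratory and the labels name no treatment or engineered allele in any of them, and each mouse gave 1 library. Barcodes were kept if they held 1000 UMIs or more from 500 genes or more, of which no more than 10% were mitochondrial. Members were selected on measured values, namely 1 or more UMIs of *Dntt*, 1 or more of *Igll1* or *Vpreb1*, 1 or more of *Cd79a* or *Cd79b*, and 0 of *Ighd*. The rule found 845 members among 39051 kept cells (2.16%). The NZB mice held 16, 22, and 48 of them, the NZW mice 80, 103, and 154, and the NZBWF1 mice 64, 216, and 142. The members therefore summed to few UMIs in the first and second NZB mice, 37317 and 47113, compared with 165325 in the third and 184750 to 573160 in the 6 other mice.

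A pro-B cell is the stage of B-cell development at which the immunoglobulin heavy chain gene is assembled from V, D, and J segments. The RAG1 and RAG2 proteins cut the segments, and the enzyme encoded by *Dntt*, terminal deoxynucleotidyl transferase, adds untemplated nucleotides where they are joined, which diversifies the antibody repertoire. The first heavy chain is tested together with the surrogate light chain, made of the products of *Igll1* and *Vpreb* genes, and signals through the CD79 proteins. Cells that pass become large cycling pre-B cells, which still carry surrogate light chain while *Dntt* is turned off, and the light chain is then assembled under renewed RAG expression. *Ighd* marks the mature B cells that follow.

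The promoters of 3 genes at the centre of this stage are shown because the rule reads the first and the second and because the third encodes the partner of RAG2 in cutting the gene segments. Each window holds the 250 bases before the start of the RefSeq gene on build GRCm38.p6, written 5′ to 3′ on the strand of the gene. The window of *Dntt* was chr19:41029025-41029274 (plus strand), that of *Igll1* chr16:16863986-16864235 (minus strand), and that of *Rag1* chr2:101649533-101649782 (minus strand). Capitals mark matches of CCCNNGGG, the centre of the palindrome bound by EBF1 (its reverse complement is the same motif), and of CAGGTG or its reverse complement CACCTG, an E-box bound by the E proteins of B cells.
Dntt: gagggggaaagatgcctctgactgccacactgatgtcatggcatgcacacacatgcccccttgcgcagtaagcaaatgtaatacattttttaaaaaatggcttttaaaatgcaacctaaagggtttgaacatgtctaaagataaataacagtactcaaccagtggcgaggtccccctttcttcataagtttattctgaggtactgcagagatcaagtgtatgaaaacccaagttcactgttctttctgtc
Igll1: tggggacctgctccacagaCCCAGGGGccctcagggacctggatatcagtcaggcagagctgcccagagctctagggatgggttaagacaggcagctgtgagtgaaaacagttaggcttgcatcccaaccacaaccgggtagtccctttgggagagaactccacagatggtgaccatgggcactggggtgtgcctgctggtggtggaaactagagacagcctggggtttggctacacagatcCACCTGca
Rag1: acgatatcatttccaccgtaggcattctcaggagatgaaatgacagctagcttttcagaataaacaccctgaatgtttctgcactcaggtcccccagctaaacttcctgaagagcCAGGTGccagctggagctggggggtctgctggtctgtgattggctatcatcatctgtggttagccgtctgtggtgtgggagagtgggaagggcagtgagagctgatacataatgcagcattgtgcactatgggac
The window of *Igll1* held 1 match of CCCNNGGG, which began 231 bases before the start, and 1 E-box at 8 bases. That of *Rag1* held 1 E-box at 135 bases and 0 matches of CCCNNGGG, and that of *Dntt* held 0 of both. The motifs did not overlap each other. Of 27025 promoters of this length, 11.7% held CCCNNGGG and 17.1% held CAGGTG on either strand.

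The members carried a median of 2117 UMIs, 1169 genes, and 5.09% mitochondrial UMIs per cell. A single UMI of *Dntt* was counted in 222 of them, and 623 had 2 or more, with a median of 3 and a maximum of 34. UMIs of *Igll1* were found in 810 members, of *Vpreb1* in 837, of both in 802, and of *Cd79a* in 779. Levels are given as CPM, the summed UMIs of a gene scaled to the summed UMIs of all genes in the same cells of a mouse. *Dntt* lies on chromosome 19, 41029275 to 41059525, in the GENCODE annotation of build GRCm38. *Dntt* stood at 858, 1252, and 665 CPM in the members of the NZB mice, at 1231, 1075, and 1729 CPM in NZW, and at 1375, 1090, and 1205 CPM in NZBWF1. The groups overlapped. *Igll1* stood at 2171, 934, and 1173 CPM in NZB, at 2093, 1649, and 2045 CPM in NZW, and at 2355, 1671, and 1681 CPM in NZBWF1. *Vpreb1* stood at 2921, 1486, and 1948 CPM in NZB, at 3378, 2594, and 3206 CPM in NZW, and at 3015, 2486, and 2569 CPM in NZBWF1. These genes chose the members, so their levels are a description and were not tested. In barcodes with fewer than 100 UMIs, which hold free RNA, *Dntt* reached 12.3 to 68.8 CPM, *Igll1* 12.7 to 175 CPM, and *Vpreb1* 15.2 to 182 CPM.

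The label was checked against early B-cell genes that the rule did not read. *Ebf1*, which specifies the lineage, had a UMI in 98.8% of the members, and *Vpreb3*, a partner of surrogate light chain assembly, in 97.9%. *Blnk*, the adaptor of the pre-B receptor, was found in 75.1%, *Lef1*, a transcription factor of pro-B cells, in 72.4%, *Il7r*, the interleukin 7 receptor, in 57.2%, and *Pax5*, which commits cells to the lineage, in 54.6%. In 14061 cells with neutrophil markers, which should lack these genes and had a median of 2485 UMIs and 741 genes (against 2117 and 1169), the same 6 genes were found in 0.199% to 1.03%. *Rag1* was found in 36.3% of the members against 0.128%, and *Rag2* in 22.8% against 0.0284%. Genes of uncommitted precursors were rare. *Kit* was found in 5.68% of the members against 2.90% of the neutrophil-marker cells, *Flt3* in 4.02% against 0.519%, and the endothelial and stem cell factor *Erg* in 7.22% against 1.22%. *Cd3e*, a T-cell gene, was found in 0.237% against 0.341%, which is not above background. *Siglech*, of plasmacytoid dendritic cells, was found in 1.30% against 0.996% over all strains, but it stood at 161, 127, and 24.2 CPM in the members of the NZB mice, compared with 0 to 16.3 CPM in the other 6 mice. The markers of pro-B cells were therefore present.

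Markers of other cell types were counted in the members. They reached 10 UMIs in 109 of the 845 (12.9%), from 0% to 22.7% by mouse. Doublet marks fell on 56 of the 845 members (6.63%), compared with 1458 of all 39051 kept cells. Summed neutrophil markers (7 genes) ranged from 402 to 39649 CPM in the members of the NZB mice, from 5989 to 29749 CPM in NZW, and from 11908 to 45776 CPM in NZBWF1, below the 63932 to 134124 CPM of free RNA. A lower level than in free RNA does not exclude it as a source, and the part of free RNA and of doublets was not tested. The second NZBWF1 mouse stood apart in *Ighm*, at 5227 CPM compared with 1474 to 2300 CPM in the other 8 mice, and its summed plasma cell markers reached 1139 CPM, compared with 21.2 to 188 CPM in the others. Of 170 barcode sequences shared between libraries, 7 belonged to members.

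The cells on each side of the *Dntt* threshold were compared as a description. With every other term of the rule met and *Dntt* at 0, 1603 cells with a median of 3380 UMIs held 694 CPM of *Igll1*, 794 CPM of *Vpreb1*, 25.1 CPM of *Rag1*, and 20.1 CPM of *Rag2*. The 222 cells with exactly 1 UMI of *Dntt* were shallower (median 1901.5 UMIs) and held 1499 CPM of *Igll1*, 2314 CPM of *Vpreb1*, 175 CPM of *Rag1*, and 70.7 CPM of *Rag2*. With 2 UMIs of *Dntt* (176 cells) these levels were 1755, 2721, 191, and 112 CPM, with 3 to 4 (224 cells) they were 2043, 3143, 240, and 106 CPM, and with 5 or more (223 cells) they were 1839, 2701, 211, and 110 CPM. *Igll1* and *Vpreb1* are read by the rule, and the part of depth in these levels was not tested. *Erg* differed within the members, from 8.42 CPM at 1 UMI of *Dntt* to 33.0 CPM at 2 UMIs, 42.4 CPM at 3 to 4, and 29.6 CPM at 5 or more, and it stood at 2.06 CPM at 0. *Ighm* stood at 3832 CPM at 0 UMIs of *Dntt*, 5410 CPM at 1, 2140 CPM at 2, 2024 CPM at 3 to 4, and 1690 CPM at 5 or more. These levels were pooled over the mice, and the part of the second NZBWF1 mouse, which stood apart in *Ighm*, was not tested.

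The share of pro-B cells in the bone marrow was lowest in the NZB mice, with a difference between strains that did not pass the permutation test after adjustment over the shares tested. They made up 0.65%, 0.43%, and 1.46% of the kept cells of the NZB mice, 1.86%, 2.0%, and 3.11% in NZW, and 2.49%, 3.89%, and 2.50% in NZBWF1. Every NZB mouse lay below every mouse of the other strains. The means were 0.848 ± 0.543%, 2.32 ± 0.686%, and 2.96 ± 0.805% (SD, n = 3 mice each; exact two-sided permutation over the 280 partitions, p = 0.0214, and 0.0643 after Benjamini-Hochberg adjustment over 3 shares). The smallest p of this test is 0.00357. NZB was below NZW by a ratio of 0.365, and NZBWF1 was above NZB 3.49-fold, each with exact permutation p = 0.1, the smallest p that 3 against 3 mice can give. NZBWF1 was 1.27-fold above NZW (exact permutation, p = 0.4). Counting error was smaller than these differences, as the cells pooled per strain gave shares of 0.793% (0.635 to 0.978%) in NZB, 2.34% (2.1 to 2.6%) in NZW, and 3.06% (2.78 to 3.36%) in NZBWF1, with exact binomial 95% intervals that cover counting error only. With every cell thinned to 1000 UMIs, 572 cells met the rule, at 0.488 ± 0.256%, 1.67 ± 0.591%, and 2.06 ± 0.506% (exact permutation, p = 0.0286). The p rose to 0.0679 with at most 5% mitochondrial UMIs, to 0.0679 without the first NZB mouse, to 0.0714 without the second, and to 0.05 without the second NZBWF1 mouse. Without the third NZB mouse the ratio of NZB to NZW fell from -1.45 to -2.10 on the log2 scale.

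**Figure D1:**
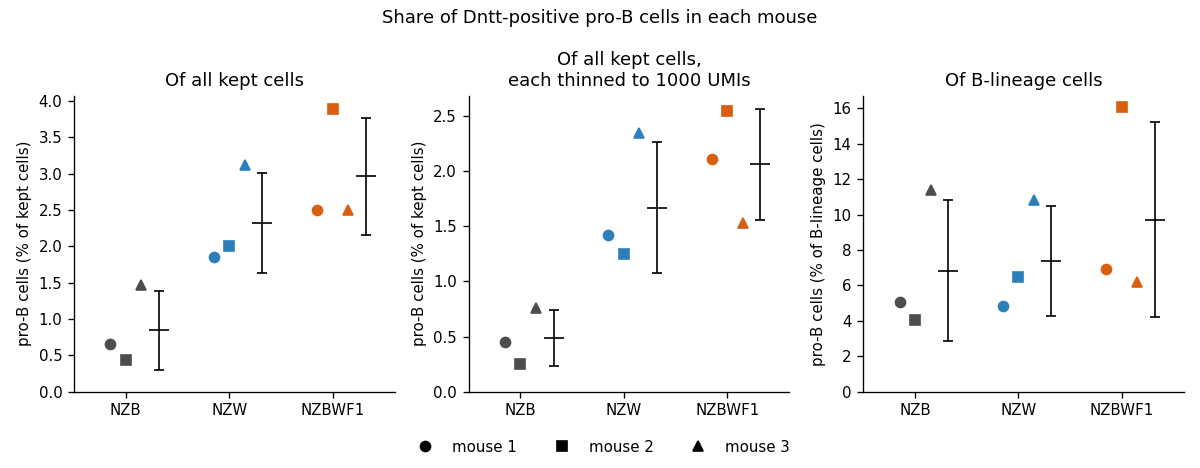
Share of *Dntt*-expressing pro-B cells in each mouse, as percent of kept cells (left), as percent of kept cells with each cell thinned to 1000 UMIs (middle), and as percent of B-lineage cells (right). Points are mice and the bars give mean ± SD (n = 3). The NZB mice lie at 0.43% to 1.46% of kept cells, below the 1.86% to 3.89% of the others, and the strains overlap in the right panel.

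Within the B lineage the strains overlapped. B-lineage cells, taken as cells with at least 2 UMIs of *Cd79a* and *Cd79b* together, were 10.2 ± 2.09% of kept cells in the NZB mice, 29.8 ± 4.42% in NZW, and 31.1 ± 8.38% in NZBWF1. Pro-B cells were 5.07%, 4.04%, and 11.41% of them in the NZB mice, 4.86%, 6.50%, and 10.86% in NZW, and 6.91%, 16.06%, and 6.21% in NZBWF1 (exact permutation over the strains, p = 0.704). The limit of 2 UMIs left 769 of the 845 members here, namely 73 of 86 in NZB, 310 of 337 in NZW, and 386 of 422 in NZBWF1. A quasi-likelihood fit of edgeR to the cell numbers gave a log2 difference among kept cells of 1.81 (SE 0.490) between NZBWF1 and NZB, of -1.46 (SE 0.487) between NZB and NZW, and of 0.35 (SE 0.463) between NZBWF1 and NZW. Among B-lineage cells the difference between NZBWF1 and NZB was 0.50 (SE 0.482), so these 9 mice could not show whether the share within the lineage differed.

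The share of cells with *Dntt* overlapped between the strains, but a smaller part of them met the rest of the rule in NZB. Cells with at least 1 UMI of *Dntt* were 4.36 ± 0.189% of kept cells in the NZB mice, 3.62 ± 1.08% in NZW, and 4.87 ± 1.22% in NZBWF1. Of these, 15.5%, 9.95%, and 32.0% were members in the NZB mice, compared with 65.0%, 63.6%, and 64.2% in NZW and 62.1%, 62.1%, and 57.7% in NZBWF1. With all cells thinned to 1000 UMIs the mean percents were 19.4, 62.6, and 61.0. In NZB, 70 of 103, 160 of 221, and 81 of 150 cells with *Dntt* had 0 UMIs of surrogate light chain and of CD79 genes. Pooled over the strain, the 388 NZB cells with *Dntt* outside the rule held 2047 CPM of *Irf8*, 969 CPM of *Ly6d*, 778 CPM of *Siglech*, and 194 CPM of the cytokine receptor gene *Flt3*, compared with 264, 116, 64.1, and 32.0 CPM in the 86 inside it. Cells with *Dntt* outside the rule in NZW and NZBWF1 held like levels of *Flt3* (230 and 200 CPM) and *Ly6d* (703 and 804 CPM), less *Irf8* (1142 and 1428 CPM), and less *Siglech* (91.8 and 282 CPM). *Siglech* and *Irf8* are genes of plasmacytoid dendritic cells and their precursors, and *Ly6d* is known from early lymphoid precursors. Here and below, neutrophil-marker cells are another set than the 14061 above. They are 14071 cells with at least 50 UMIs of *Ngp*, *Camp*, *Ltf*, and *Lcn2* together (median 2575 UMIs and 763 genes). Of them, 85 (0.604%) held a *Dntt* UMI (0.10% to 1.51% by mouse), and 48 (0.341%) met the whole rule. These 48 are among the 845 members, with 5 in NZB, 16 in NZW, and 27 in NZBWF1.

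Members differed widely in their expression of genes of division. After thinning to 1000 UMIs, 343 of 845 members (40.6%) held at least 3 UMIs of 25 genes of G2 and mitosis. By mouse these were 25.0%, 63.6%, and 66.7% in NZB, 30.0%, 49.5%, and 32.5% in NZW, and 21.9%, 42.1%, and 44.4% in NZBWF1. The strains overlapped, at 51.8 ± 23.2%, 37.3 ± 10.6%, and 36.1 ± 12.4% (exact permutation, p = 0.457, adjusted 0.686). Without thinning they were 51.8%, 47.8%, and 44.9% (exact permutation, p = 0.854). The first mouse of each strain was the lowest of its strain, and it was also the lowest in neutrophil-marker cells (17.7%, 23.2%, and 17.7%, in the order NZB, NZW, and NZBWF1, compared with 27.0% to 38.8% in the other mice) and in T-marker cells (2.83%, 9.12%, and 5.04%, compared with 6.82% to 18.0%). The part of the library in the share was not tested. The same limit was passed by 28.7% of all neutrophil-marker cells, whose early forms divide in the bone marrow, and by 10.3% of T-marker cells. The part of free RNA in these shares was not tested.

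The levels of single genes in members with and without these genes were compared as a description. *Mki67*, a protein of dividing nuclei, stood at 1307 CPM in the pooled members with G2 and mitosis genes and at 104 CPM in those without, as the split reads it. *Dntt* stood at 923 and 1637 CPM in the same order, and *Rag1* at 95.6 and 352 CPM. *Igll1* stood at 1399 and 2304 CPM, *Vpreb1* at 1988 and 3683 CPM, and *Ebf1* at 2111 and 3329 CPM. *Rag2* stood at 79.3 and 127 CPM, and the difference was smaller for *Il7r*, at 362 and 426 CPM.

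**Figure D2:**
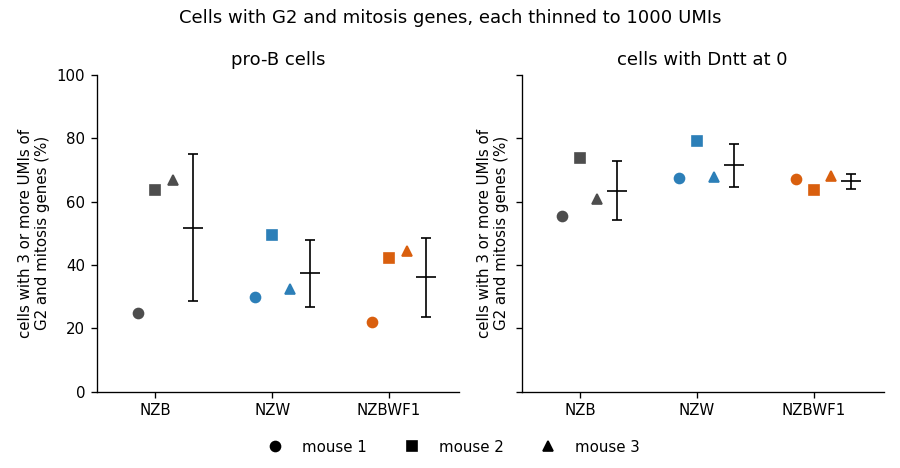
Percent of cells with at least 3 UMIs of 25 G2 and mitosis genes, after thinning each cell to 1000 UMIs, in pro-B cells (left) and in cells that meet the same rule except that *Dntt* is at 0 (right). Points are mice and the bars give mean ± SD (n = 3). Pro-B cells lie at 21.9% to 66.7% and cells with *Dntt* at 0 at 55.6% to 79.2%.

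Pro-B cells were next compared with 3 other sets of B-lineage cells of the same mice, as a description, since the rule of each set reads some of the genes. The first set met the same rule with *Dntt* at 0 (1603 cells). The second had *Rag1* without *Dntt*, surrogate light chain, or *Ighd* (651 cells), and the third had *Ighd* without *Dntt* or surrogate light chain (1728 cells). In the set with *Dntt* at 0, pooled over the mice, 69.1% of the cells passed the limit of G2 and mitosis genes, compared with 40.6% of pro-B cells, 32.7% of the *Rag1* set, and 18.8% of the *Ighd* set. The share was higher with *Dntt* at 0 than in pro-B cells in 8 of 9 mice and lower in the third NZB mouse (60.9% compared with 66.7%). S phase genes reached 3 UMIs in 69.3%, 40.2%, 17.2%, and 13.9% in the same order. Among 3542 genes of at least 50 CPM in either set, 254 (7.17%) were higher in pro-B cells than in cells with *Dntt* at 0 in all 9 mice, and 224 (6.32%) were lower. Compared with the *Rag1* set these were 342 (9.09%) and 249 (6.62%) of 3761, and compared with the *Ighd* set 636 (17.2%) and 344 (9.33%) of 3688.

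Genes of recombination and of pre-B receptor signalling differed from cells with *Dntt* at 0 in both directions, beside 7.17% of all genes higher and 6.32% lower in all 9 mice. *Rag2* was at 106 ± 36.1 CPM in pro-B cells and at 28.3 ± 17.9 CPM with *Dntt* at 0 (SD over 9 mice), and it was higher in 9 of 9 mice. Its level in pro-B cells was 161, 149, and 72.6 CPM in the NZB mice, 93.6, 53.9, and 140 CPM in NZW, and 92.0, 106, and 89.3 CPM in NZBWF1. *Rag1*, which chose the *Rag1* set and is left out of the list counts here, was at 196 ± 93.0 and 27.6 ± 11.9 CPM and was higher in 9 of 9 mice. Of 4 other genes of V(D)J recombination with at least 50 CPM, *Rag2* was higher in all 9 mice, and *Hmgb1*, a chromatin protein that assists cutting, was lower. *Vpreb2*, a second VpreB gene, stood at 364 compared with 110 CPM, and it was nearly absent from the *Rag1* set (2.13 CPM) and the *Ighd* set (0.20 CPM). Those sets were chosen to lack *Igll1* and *Vpreb1*, so a low level of a related gene in them is not an independent result. *Blnk* stood at 607 ± 168 compared with 197 ± 34.9 CPM. Of the 10 genes of the pre-B receptor and its signalling, these 2 were higher in all 9 mice, whereas *Ighm*, *Lyn*, and *Blk* were lower. *Ighm* encodes the heavy chain itself, and it stood at 2312 compared with 4991 CPM. The kinase gene *Blk* stood at 27.2 compared with 111 CPM. The median log2 difference of the 10 genes was 0.08.

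**Figure D3:**
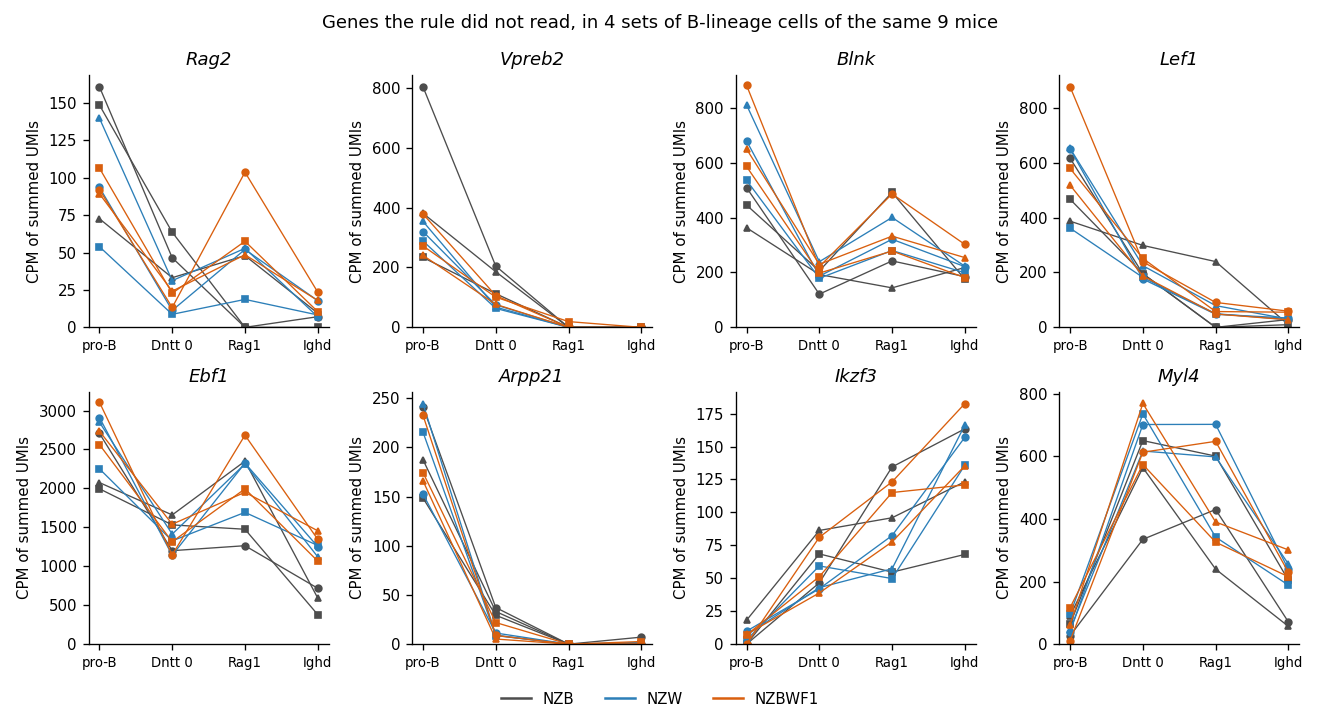
Levels in CPM of summed UMIs for 8 genes that the rule did not read, in pro-B cells, cells with *Dntt* at 0, the *Rag1* set, and the *Ighd* set. Each line is 1 mouse (circle, square, and triangle for mouse 1, 2, and 3, in the color of its strain). *Rag2*, *Vpreb2*, *Blnk*, *Lef1*, *Ebf1*, and *Arpp21* fall from pro-B cells to cells with *Dntt* at 0 in all 9 mice, while *Ikzf3* and *Myl4* rise.

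Transcription factors differed in both directions. Of 21 with at least 50 CPM, 7 were higher in pro-B cells than in cells with *Dntt* at 0 in all 9 mice and 3 were lower, beside 7.17% and 6.32% of all genes. *Lef1* stood at 568 compared with 217 CPM, *Ebf1* at 2577 compared with 1364 CPM, *Bcl11a* at 393 compared with 168 CPM, and *Sox4* at 430 compared with 259 CPM. *Tcf4*, *Runx1*, and *Id3* were the others that were higher. *Foxo1*, which activates the *Rag* genes, stood at 178 compared with 72.1 CPM and was higher in 8 of 9 mice. *Ikzf3*, encoding Aiolos, a repressor that is known to rise at the pre-B stage, had only 16 UMIs in all members (5.84 CPM as the mean of the mice, compared with 57.4 CPM). *Bach2* stood at 127 compared with 351 CPM and *Lmo4* at 100.3 compared with 244 CPM. *Erg* had 66 UMIs in pro-B cells (31.3 ± 14.4 CPM, 10.5 to 59.1 CPM) and 14, 4, and 2 UMIs in the cells with *Dntt* at 0, the *Rag1* set, and the *Ighd* set.

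Growth and surface genes were counted in the same way, beside 7.17% higher and 6.32% lower of all genes. Of 7 interleukin 7 and growth signal genes, *Socs2*, an inhibitor of cytokine signalling that cytokines themselves induce, was higher in all 9 mice (153 compared with 64.7 CPM), and *Il7r* was higher in 8 of 9 (380 compared with 299 CPM). Of 15 surface genes, *Cd93* (184 compared with 69.0 CPM), *Bst1* (141 compared with 47.2 CPM), and *Ly6d* (140 compared with 69.4 CPM) were higher in all 9 mice. *Cd24a*, a surface glycoprotein of precursor cells, was lower (585 compared with 1402 CPM). Of 22 S phase genes, 11 were lower in all 9 mice and 0 were higher, among them *Mcm3*, *Rrm2*, and *Uhrf1*, and the median log2 difference was -0.51. Of 25 G2 and mitosis genes only *Birc5* and *Bub1b* were lower in all 9 mice (median -0.17).

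Of 11 interferon-stimulated genes with at least 50 CPM, 6 were higher in all 9 mice than with *Dntt* at 0 and 0 were lower, beside 7.17% and 6.32% of all genes, with a median log2 difference of 0.92. *Ifitm2*, a membrane protein that restricts virus entry, stood at 1584 compared with 768 CPM and *Ifitm3* at 351 compared with 111 CPM. *Trim30a* stood at 108 compared with 33.3 CPM and *Ifi27* at 168 compared with 64.0 CPM. *Samd9l* and *Mndal* were the others. Against the *Rag1* set, 0 of 15 genes of the same list were higher in all 9 mice and 0 were lower (median -0.07), beside 9.09% and 6.62% of all genes. Against the *Ighd* set 2 of 13 were higher and 3 lower, beside 17.2% and 9.33%.

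Several of the genes with the largest differences were on none of these lists. *Arpp21*, encoding a cyclic AMP-regulated phosphoprotein, stood at 196 ± 38.2 CPM in pro-B cells, at 18.3 ± 12.3 CPM with *Dntt* at 0, at 0.00 CPM in the *Rag1* set, and at 1.28 CPM in the *Ighd* set, with a smallest log2 difference of 2.01 in any mouse. *Myl4*, a myosin light chain gene, stood at 61.3 ± 34.5 compared with 618 ± 127 CPM with *Dntt* at 0, and *Nrgn*, encoding a calmodulin-binding protein, at 45.1 compared with 303 CPM. *Fcrla*, an Fc receptor-like gene, stood at 39.1 compared with 302 CPM and reached 614 CPM in the *Rag1* set. *Dlg2*, *Tbxa2r*, *Frmd6*, *Tcf7l2*, and *Myl10* stood below 15 CPM with *Dntt* at 0 and at 54.1 to 95.5 CPM in pro-B cells. Against the *Rag1* set, *Impdh1*, of nucleotide synthesis, stood at 209 compared with 13.6 CPM, while *Dnajc7* was lower at 234 compared with 1883 CPM. Against the *Ighd* set, 9 of 17 surface genes were lower in all 9 mice and 2 were higher, beside 9.33% and 17.2% of all genes. *Cd74*, the invariant chain of antigen presentation, stood at 209 compared with 4799 CPM there and *H2-Aa*, a class II chain, at 51.1 compared with 1421 CPM. *Ms4a1*, encoding CD20, stood at 46.1 compared with 953 CPM.

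Strains were compared over UMIs summed per mouse, with 3910 genes tested in all 9 mice by the edgeR quasi-likelihood test and Benjamini-Hochberg adjustment over all genes of the fit. Between NZB and NZW, 58 genes passed an adjusted p of 0.05 (1.48%), 22 higher in NZB (0.563%) and 36 lower (0.921%). Between NZBWF1 and the mean of its parents on the log scale 6 passed (0.153%), all of them higher. Against NZB alone 9 passed (0.23%), 6 higher (0.153%) and 3 lower (0.0767%), and against NZW alone 19 passed (0.486%), 10 higher (0.256%) and 9 lower (0.23%). These comparisons share mice. The mice of the sides compared did not overlap for 13.7% of the genes between NZB and NZW, 12% between NZBWF1 and NZB, 10.4% between NZBWF1 and NZW, and 1.76% between NZBWF1 and both parents. The counts depend on single mice, since NZB against NZW fell to 21 genes without the third NZB mouse, which holds most NZB members, and to 36 without the third NZW mouse. NZBWF1 against NZB rose to 15 without the second NZB mouse and fell to 5 without the third NZBWF1 mouse, and NZBWF1 against NZW fell to 11 without the first or the third NZW mouse or the third NZBWF1 mouse. Mature B-cell markers summed to 268 to 955 CPM in the members of the NZB mice, compared with 133 to 200 CPM in NZW and 146 to 270 CPM in NZBWF1, with *Ighd* and *Fcer2a* at 0, and plasmacytoid dendritic cell markers to 387 to 831, 260 to 360, and 271 to 340 CPM. Their part in the strain differences was not tested.

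Among genes of V(D)J recombination, of the pre-B receptor, and of B-lineage transcription factors, only *Blnk*, *Foxo1*, and *Spib* passed by edgeR. Each was lower in NZB than in NZW, beside 0.921% of all genes that were lower, and none passed by DESeq2. Of 16 genes of V(D)J recombination, 6 were tested and 0 passed in any of the 4 comparisons by edgeR or by DESeq2, with 2 at an unadjusted p under 0.05 between NZB and NZW (304 of all 3910 genes) and 0 in the others. *Rag1* stood at 188, 63.7, and 163 CPM in NZB, 295, 108, and 315 CPM in NZW, and 314, 190, and 126 CPM in NZBWF1. Of 9 tested genes of the pre-B receptor, *Blnk* (chromosome 19, 40928927 to 40994535) passed. It stood at 509, 446, and 363 CPM in NZB, 680, 536, and 811 CPM in NZW, and 882, 586, and 650 CPM in NZBWF1. It was lower in NZB than in NZW by a log2 difference of -0.72 (SE 0.202, edgeR adjusted p = 0.0475), the groups did not overlap, and the list had a median of -0.38, compared with -0.01 over all genes tested. The call was lost in 13 of 20 alternatives, DESeq2 among them, with adjusted p up to 0.608. The list had a median of 0.69 between NZBWF1 and NZB, 0.40 against the mean of the parents, and 0.05 between NZBWF1 and NZW. In these 3 comparisons 4, 2, and 0 of its 9 genes had an unadjusted p under 0.05 by edgeR, and 2 had between NZB and NZW. These are beside 260, 169, 170, and 304 of all 3910 genes.

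Of 20 tested transcription factors of the B lineage, 2 were lower in NZB than in NZW, beside 0.921% of all genes, with a median of -0.28 over the list. *Foxo1* stood at 161, 63.7, and 84.7 CPM in NZB, 286, 193, and 224 CPM in NZW, and 260, 150, and 176 CPM in NZBWF1. Every NZB mouse lay below every NZW mouse, with a log2 difference of -1.32 (SE 0.322, edgeR adjusted p = 0.0127). *Spib*, an ETS factor of B cells and plasmacytoid dendritic cells, stood at 107, 42.5, and 54.4 CPM in NZB and at 227, 114, and 172 CPM in NZW, with NZBWF1 between at 130, 92.5, and 102 CPM. Its log2 difference was -1.47 (SE 0.379, edgeR adjusted p = 0.0233). The call of *Foxo1* was lost in 6 of 19 alternatives (adjusted p up to 0.407) and that of *Spib* in 8 of 19 (up to 0.499), and neither passed by DESeq2. *Ebf1*, *Pax5*, and *Lef1* were among the 18 that did not pass. *Ebf1* averaged 2259, 2670, and 2802 CPM in NZB, NZW, and NZBWF1. None of 7 genes of growth signals and none of 16 surface genes passed in any comparison by edgeR or DESeq2. Between NZB and NZW, 3 and 6 of them had an unadjusted p under 0.05, and in the other comparisons 1 to 2 and 1 to 3, beside 304 and 169 to 260 of all 3910 genes. *Il7r* stood at 322, 297, and 308 CPM in NZB and at 616, 336, and 475 CPM in NZW.

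Of 25 tested genes of G2 and mitosis, 0 passed in any comparison by edgeR or DESeq2, 1 had an unadjusted p under 0.05 between NZB and NZW and 0 in the other comparisons, and the median log2 difference between NZB and NZW was 0.03. Of 21 S phase genes, *Pcna*, the sliding clamp of DNA replication, passed in 2 comparisons. It stood at 161, 233, and 194 CPM in NZB, 54.2, 105, and 41.9 CPM in NZW, and 152, 106, and 176 CPM in NZBWF1. It was higher than in NZW by 1.54 in NZB (SE 0.336, edgeR adjusted p = 0.0033) and by 1.07 in NZBWF1 (SE 0.269, edgeR adjusted p = 0.0404) on the log2 scale. The second call was lost in 9 of 19 alternatives, and of all genes 0.563% were higher in the first comparison and 0.256% in the second. The other 20 genes did not pass, and the median of the list was -0.19.

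Of 12 tested interferon-stimulated genes, 1 was higher in NZB than in NZW and 2 were lower, beside 0.563% and 0.921% of all genes. *Ifitm2* stood at 322, 425, and 321 CPM in NZB, 3034, 2708, and 3117 CPM in NZW, and 1380, 1312, and 1639 CPM in NZBWF1. Each strain was separate from the others, and NZB was below NZW by a log2 difference of -3.10 (SE 0.168). *Mndal*, of a family of interferon-inducible DNA sensors, stood at 53.6, 21.2, and 24.2 CPM in NZB, 182, 146, and 161 CPM in NZW, and 92.0, 89.0, and 79.3 CPM in NZBWF1. *Apobec3*, a cytidine deaminase that restricts retroviruses, was higher in NZB, at 456, 340, and 321 CPM, than in NZW, at 34.5, 60.3, and 41.9 CPM, and stood at 271, 223, and 211 CPM in NZBWF1. Its log2 difference between NZB and NZW was 2.89 (SE 0.285). The median of the list was 0.19, and the other 9 genes did not pass.

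**Figure D4:**
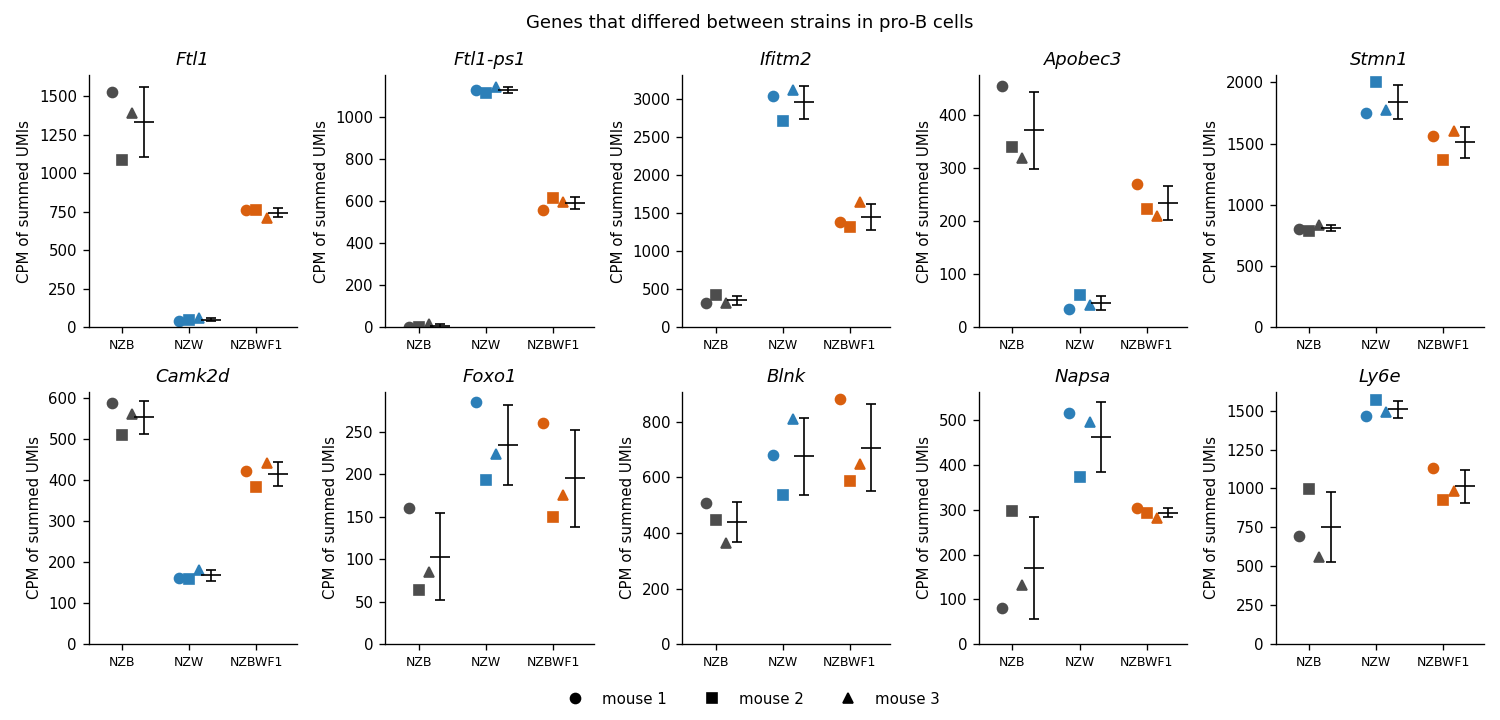
Levels in CPM of summed UMIs in the pro-B cells of each mouse, for 10 genes that differed between strains. Points are mice (circle, square, and triangle for mouse 1, 2, and 3) and the bars give mean ± SD (n = 3). *Ftl1*, *Ifitm2*, *Apobec3*, *Camk2d*, and *Stmn1* separate NZB from NZW without overlap, and NZBWF1 lies between them.

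A list of genes of iron handling and of interest to the study was chosen on these mice and so is not independent evidence. Of its 11 tested genes, 3 were higher in NZB than in NZW and 3 lower, beside 0.563% and 0.921% of all genes. Several of them, and of the genes of smallest p, have near-identical copies. *Ftl1*, the ferritin light chain (chromosome 7, 45457944 to 45459884), stood at 1527, 1082, and 1391 CPM in NZB, 39.4, 47.6, and 60.6 CPM in NZW, and 758, 764, and 709 CPM in NZBWF1. *Ftl1-ps1*, its near-identical copy, stood at 0, 0, and 18.1 CPM in NZB, 1128, 1113, and 1142 CPM in NZW, and 558, 616, and 595 CPM in NZBWF1. The sum of both was 1340 ± 230 CPM in NZB, 1177 ± 22.3 CPM in NZW, and 1333 ± 41.0 CPM in NZBWF1, so the assignment of reads to either copy is uncertain. *Tpm3-rs7* and *Tpm3*, a tropomyosin gene, had sums of 304, 338, and 307 CPM in the same order. The histone genes *Hist1h2ae* and *Hist1h4i*, each among many near-identical copies, had 0 UMIs in NZB, and NZW was at least 7.64-fold and 5.80-fold higher (floor of 3 UMIs over the strain). Free RNA differed the same way for *Ftl1*, at 2658 to 3676 CPM in NZB and 75.1 to 107 CPM in NZW. For *Hist1h4i* it held 2.69 to 3.80 CPM in NZB and 59.1 to 77.3 CPM in NZW, where the members averaged 68.1 CPM. For *Hist1h2ae* it held 4.11 to 7.61 CPM in NZB and 39.4 to 77.2 CPM in NZW, where the members averaged 97.8 CPM. The part of free RNA in these differences was not tested.

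Among other genes of small p, for which copies were not summed, *Camk2d* and *Stmn1* separated the parents without overlap. *Camk2d*, a calcium-dependent kinase (chromosome 3, 126596302 to 126846326), stood at 590, 509, and 563 CPM in NZB, 163, 159, and 182 CPM in NZW, and 422, 384, and 441 CPM in NZBWF1. The log2 difference of NZB to NZW was 1.69 (SE 0.209) and of NZBWF1 to NZW 1.28 (SE 0.181). *Stmn1*, which destabilizes microtubules, stood at 804, 785, and 835 CPM in NZB, 1748, 2001, and 1775 CPM in NZW, and 1559, 1368, and 1607 CPM in NZBWF1, with a log2 difference of -1.21 (SE 0.151) between the parents and of 0.90 (SE 0.151, edgeR adjusted p = 0.000144) between NZBWF1 and NZB. *Ctse*, the protease cathepsin E, stood at 0, 0, and 30.2 CPM in NZB, at 197, 190, and 245 CPM in NZW, and at 119, 101, and 126 CPM in NZBWF1. The chaperone *Hsp90aa1* was higher in NZB, at 1635, 1910, and 2528 CPM, than in NZW, at 1054, 1303, and 941 CPM, and than in NZBWF1, at 1386, 928, and 1232 CPM. Its call was lost in 2 of 20 alternatives against NZW and in 6 of 20 against NZBWF1. *Rps3a1*, a ribosomal protein gene with processed copies, was higher in NZB than in NZW by 1.19 (SE 0.115).

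Further genes were chosen after their values were seen. The heat shock genes *Hspa8* and *Hsph1* were higher in NZB than in NZW by 0.73 (SE 0.158, edgeR adjusted p = 0.0059) and 1.48 (SE 0.342, edgeR adjusted p = 0.0061). The call of *Hspa8* was lost in 5 of 20 alternatives and that of *Hsph1* in 4 of 19. *Slamf6*, a receptor of lymphocytes in a family of genes on mouse chromosome 1, stood at 107, 297, and 109 CPM in NZB, 438, 333, and 445 CPM in NZW, and 384, 300.1, and 320 CPM in NZBWF1, a log2 difference of -1.44 (SE 0.273) between the parents. *Trib2*, a pseudokinase gene, had 2 UMIs in NZB and 84 in NZW, a ratio of 11.1 (2.97 to 92.9, counting error only). *H2-T22*, a nonclassical histocompatibility gene, was lowest in NZBWF1, at 37.9, 47.1, and 42.2 CPM, compared with 113, 130, and 114 CPM in NZW and 80.4, 63.7, and 36.3 CPM in NZB. It was lower than in NZW by a log2 difference of -1.45 (SE 0.271, edgeR adjusted p = 0.000434), and NZB overlapped with NZBWF1.

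The mean CPM of NZBWF1 lay between the means of the parents for 56 of the 58 genes called between NZB and NZW, and for 42.9% of all 3910 genes. The 58 were selected for a large gap between the parents, so the counts are a description. Against its parents' mean on the log scale, the 6 genes higher in NZBWF1 were *Ftl1*, *Ftl1-ps1*, *Dgkeos*, *Gm42031*, *Tpm3-rs7*, and *Apobec3*. On the linear scale NZBWF1 stood at 1.04 to 1.24 times the average of the parents for these 6 genes, with *Apobec3* at 1.13 and *Dgkeos* at 1.24. The call of *Apobec3* was lost in 11 of 19 alternatives and that of *Tpm3-rs7* in 8 of 19. A gene that is near 0 in 1 parent has a low mean of logs, so a hybrid at the linear average exceeds it. *Dgkeos* is annotated as an antisense gene, and the sources used here do not say whether the counting used strand.

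Some strain differences were of another size in pro-B cells than in the other sets of cells. The interaction of strain and set, with the mouse as a block, was tested by edgeR over 6305 genes for cells with *Dntt* at 0 and over 6528 genes for the *Ighd* set. Against cells with *Dntt* at 0, it passed for 7 genes (0.111%) between NZB and NZW, 2 (0.0317%) between NZBWF1 and NZB, 3 (0.0476%) between NZBWF1 and NZW, and 0 between NZBWF1 and the mean of its parents, where 263 had an unadjusted p under 0.05 by edgeR. Against the *Ighd* set the counts were 12 (0.184%), 1 (0.0153%), 1 (0.0153%), and 0 by edgeR, with 316 at an unadjusted p under 0.05 in the last. The only gene of NZBWF1 against NZW there was *Pf4*, a megakaryocyte marker, at -13.4 on the log2 scale. Megakaryocyte markers summed to 0 to 450 CPM in the members of the NZW mice, with a mean of 150 CPM. The genes of NZB against NZW with *Dntt* at 0 included *Ccr2*, a monocyte marker. The part of other cell types in these calls was not tested. The genes described next were chosen after these results were seen. The 2 genes of NZBWF1 against NZB with *Dntt* at 0, *Fn1* and *Map3k3*, were lost with another scaling of the libraries.

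*Ly6e*, a surface protein of immature lymphocytes, differed between the parents in pro-B cells, at 697, 998, and 556 CPM in NZB, 1468, 1570, and 1489 CPM in NZW, and 1131, 926, and 984 CPM in NZBWF1. With *Dntt* at 0 the means were 697, 556, and 604 CPM, and in the *Ighd* set 526, 1432, and 916 CPM. Its log2 difference between NZB and NZW in pro-B cells was -1.08 (SE 0.171, edgeR adjusted p = 7.36e-06), and it was lost without the *Dntt* term of the rule (adjusted p = 0.828), which adds the cells with *Dntt* at 0. *Napsa*, an aspartic protease gene, stood at 80.4, 297, and 133 CPM in NZB and at 517, 374, and 496 CPM in NZW in pro-B cells, but its means were 159 and 173 CPM with *Dntt* at 0 and 478 and 496 CPM in the *Ighd* set. *Camk2d* kept a difference with *Dntt* at 0 (398 and 143 CPM) and had none to see in the *Ighd* set (154 and 156 CPM). *Csrp2*, a LIM domain gene, had means of 265, 77.4, and 168 CPM in pro-B cells, 389, 251, and 299 CPM with *Dntt* at 0, and 91.3, 110, and 143 CPM in the *Ighd* set. *Rag1* had means of 138, 239, and 210 CPM in pro-B cells and of 31.9, 16.7, and 34.1 CPM with *Dntt* at 0.

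**Figure D5:**
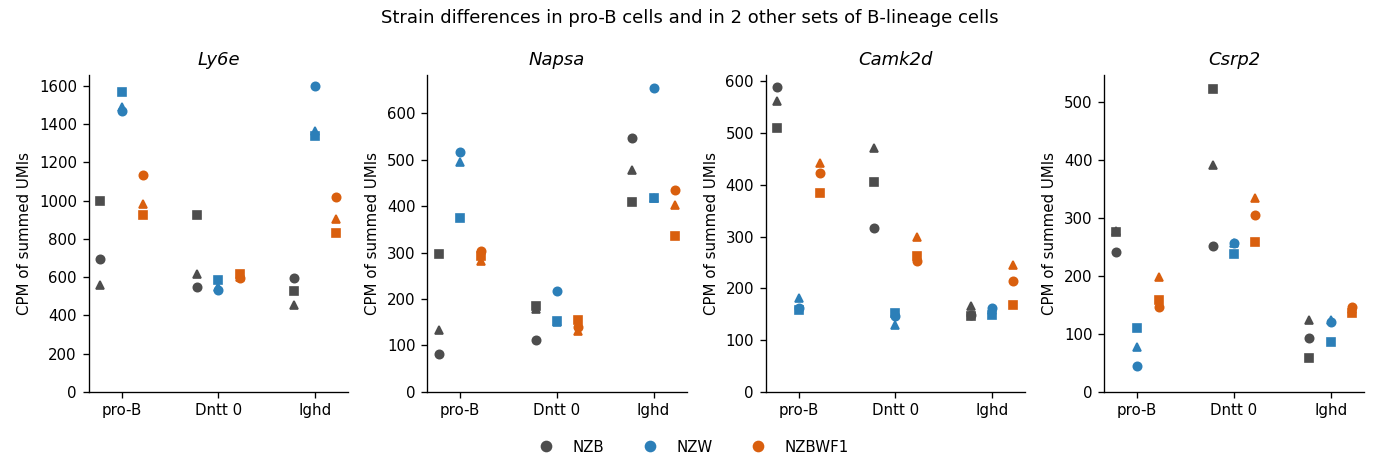
Levels in CPM of summed UMIs of *Ly6e*, *Napsa*, *Camk2d*, and *Csrp2* in pro-B cells, in cells with *Dntt* at 0, and in the *Ighd* set. Each point is 1 mouse (circle, square, and triangle for mouse 1, 2, and 3, in the color of its strain). For *Ly6e* the NZB and NZW mice are apart in pro-B cells and in the *Ighd* set and overlap in cells with *Dntt* at 0.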

How the data were processed

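Single bone marrow cells of 9 mice were sequenced from transcript 3' ends. The authors made the UMI counts with Cell Ranger 3.1.0 on build mm10, after bcl2fastq 2.20, per the submitters' processing notes, and deposited them merged as whole counts without normalization. The sources used here do not say whether merging equalized depth. Barcode suffixes were read as positions in the deposited library list. Kept cells had 8106539 to 18663189 UMIs per mouse, so sums over few cells are the less precise.

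Members and gene lists were chosen with earlier results of these data known. UMIs of members were summed per mouse (at least 10 cells), filtered with filterByExpr, TMM-scaled, and tested with the robust quasi-likelihood method of edgeR 4.0.16 in R 4.3.3, with strain as the term and DESeq2 1.42.0 as an alternative. Adjusted p-values are Benjamini-Hochberg, and SE was derived from the log2 change and its F statistic. Shares were compared by exact permutation of mice (scipy 1.17.1). Stage differences are means over mice of log2 of CPM plus 10. Doublets were scored with scanpy 1.11.5 (0.8% per 1000 barcodes) and removed only in an alternative. Named genes are those the rule reads, called list members and the best known others, up to 8 of lowest p per comparison without overlap of mice, and up to 10 of the largest difference per set. In simulated counts of NZBWF1 against the mean of the parents, the test found 124 of 200 genes altered 2-fold and 3 unaltered ones (3654 genes), and 185 of 200 altered 4-fold and 8 unaltered ones (3671 genes). Promoter windows came from RefSeq.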

Additional observations from a re-analysis of the deposited data

Results flagged for a closer look

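The strain difference was not the same in pro-B cells as in another set of cells for the 7 genes given here, by the edgeR interaction test with the mouse as a block. Values are log2 differences between the strain effect in pro-B cells and that in the other set. Against cells with *Dntt* at 0, *Ly6e* differed in NZB against NZW by -1.44 (SE 0.181, adjusted p = 8.6e-11) and in NZBWF1 against NZW by -0.70 (SE 0.152, adjusted p = 0.0159). *Napsa* differed there in NZB against NZW by -1.46 (SE 0.317, adjusted p = 0.00565), and *Rag1* in NZBWF1 against NZW by -1.36 (SE 0.312, adjusted p = 0.0320).

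Against the *Ighd* set, *Napsa* differed in NZB against NZW by -1.66 (SE 0.296, adjusted p = 0.000172), *Ifitm3* by -1.30 (SE 0.271, adjusted p = 0.00202), *Camk2d* by 1.53 (SE 0.297, adjusted p = 0.000464), *Csrp2* by 1.71 (SE 0.381, adjusted p = 0.00672), and *Vpreb3* by 0.75 (SE 0.181, adjusted p = 0.0270). *Vpreb3* also differed in NZBWF1 against NZB by -0.88 (SE 0.182, adjusted p = 0.0143). Its means were 2329, 2629, and 2523 CPM in the pro-B cells of NZB, NZW, and NZBWF1, and 525, 1175, and 1263 CPM in the *Ighd* set, so the strains stood further apart in the latter. *Ifitm3* had means of 314, 407, and 333 CPM in pro-B cells and of 477, 268, and 257 CPM in the *Ighd* set.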

How the results depend on the processing

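Of 92 calls of a gene in a comparison, 30 passed under every alternative that could test them, up to 20, 62 were lost under at least 1, and 0 turned direction. By alternative, 47 passed without NZB replicate 3, 59 with DESeq2, and 54 with the rule on cells thinned to 1000 UMIs. The permutation p of the share of kept cells rose to 0.0679 with at most 5% mitochondrial UMIs. The number of genes between NZB and NZW (58) became 35 with DESeq2, 23 with at least 10 counts in every mouse, 34 with the thinned rule, and 152 without the *Dntt* term, which takes in 2448 cells. Between NZBWF1 and NZW (19) it became 4 with at least 10 counts in every mouse, 11 with *Dntt* at 2 or more UMIs, and 57 without the *Dntt* term. Between NZBWF1 and NZB (9) it became 5 with *Dntt* at 2 or more and 25 without the *Dntt* term, and between NZBWF1 and the mean of the parents (6) it became 1 with at least 10 counts in every mouse and 10 without the *Dntt* term. Fewer cells or genes were tested under the stricter rules and more without the *Dntt* term, and no further cause was tested. The interaction counts against cells with *Dntt* at 0 for NZBWF1 against NZB became 0 with RLE scaling and 0 without a filter. Against the *Ighd* set, they became 4 without a filter for NZBWF1 against its parents' mean, 3 with RLE scaling and 4 without a filter for NZBWF1 against NZB, and 6 without a filter for NZBWF1 against NZW.

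With each mouse left out in turn, the permutation p ranged from 0.0143 to 0.0714 for the share of kept cells, from 0.407 to 0.979 for the share of B-lineage cells, and from 0.0893 to 0.846 for the share with mitosis genes. The log2 ratio of the share of kept cells ranged from -2.10 to -1.14 for NZB to NZW and from 1.49 to 2.45 for NZBWF1 to NZB. Genes called ranged from 21 to 68 between NZB and NZW, 5 to 15 between NZBWF1 and NZB, 11 to 21 between NZBWF1 and NZW, and 4 to 8 against the mean of the parents. Interactions ranged, in the same order, from 4 to 16, 0 to 6, 1 to 4, and 0 to 2 against cells with *Dntt* at 0, and from 9 to 23, 1 to 8, 1 to 7, and 0 to 7 against the *Ighd* set.

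The replicate numbers were not taken to pair the mice, since correlations of same-numbered mice ran from -0.084 to 0.187 (0.123 to 0.179 among the first mice), and NZB_2 correlated better with the third NZW mouse (0.095) than with the second (0.029). With the replicate number as a block, 17 genes were called between NZBWF1 and NZB in place of 9, and 57, 18, and 6 in the other comparisons. For the share of kept cells, the block gave an unadjusted edgeR p of 0.000111 between NZBWF1 and NZB, 0.000899 between NZB and NZW, and 0.242 between NZBWF1 and NZW. Without the block, as in the fit given above, the unadjusted edgeR p was 0.00315, 0.0113, and 0.462 in the same order. Sums of 16 and 22 members limit NZB, where 1 UMI was worth 26.8 CPM in the first mouse.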
